A study of Mus musculus with 4 samples.

Results

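A group of 10 markers of liver endothelium was followed over the 4 arrays: the sinusoidal markers Stab1, Stab2, Lyve1, Clec4g and Fcgr2b, and the general and capillarized markers Pecam1, Kdr, Vwf, Cd34 and Plvap. They were found through the transcript accession of each probe, which names 10 of the 23462 genes on the arrays, and they are read by 13 probes. Read by the brightest probe, each of the 10 passed the scanner software's call of signal well above background on every array. Liver RNA came from male mice of C57BL/6 background, 24 weeks old, that had been fed chow or a high-fat diet (HFD) for 18 weeks from 6 weeks of age. Lpiat1F/F mice (F/F) carry the floxed alleles without Cre, and LKO mice (Alb-Cre; Lpiat1F/F) carry the same alleles with a Cre that the albumin promoter drives in hepatocytes, so that the endothelial cells of both genotypes keep the gene, whose current name is Mboat7. Each of the 4 combinations of genotype and diet was measured on 1 array. The sources used here do not say whether an array holds RNA of 1 mouse or of a pool. No difference therefore has a replicate check, no test was made, and higher or lower below describes these arrays.

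The sinusoid is the capillary of the liver. Its endothelial cells have open pores, rest on no continuous basement membrane, and take up waste molecules from blood through scavenger and lectin receptors, and these receptors are the usual markers of the type. In chronic liver injury they can lose the pores, lay down basement membrane and take on proteins of ordinary capillaries such as CD34, a process called capillarization. Liver tissue also holds portal, central and lymphatic vessels, and several of the markers are made outside endothelium as well: Stab1 and Lyve1 by macrophages, Fcgr2b by Kupffer cells and B cells, Pecam1 by platelets and leukocytes, Vwf by megakaryocytes and Cd34 by progenitor cells and fibroblasts. In bulk RNA, fewer cells of a type and less RNA per cell cannot be told apart, and neither can more cells and more RNA per cell.

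Promoter sequence from RefSeq (GRCm38.p6) was given for 6 of the 10 genes, and Lyve1, Pecam1, Vwf and Plvap are named only. Sequences of 3 genes are shown because their levels contrast: Cd34 had the widest range over the arrays, Clec4g the narrowest, and Stab1 the largest genotype difference of the 10 on chow. Like Cd34 and some other markers, Stab1 was higher in LKO on both diets. Capitals mark letters found on either strand. The letters CGGAAG or AGGAAG are the core that ETS factors such as ERG and FLI1 bind. The letters AGATAA or AGATAG, and likewise TGATAA or TGATAG, are bound by GATA factors. Each sequence runs 5′ to 3′ on the strand of the gene and holds what lies outside the annotated gene within the 250 bases before its start.
Cd34, chr1:194938571-194938820, plus strand: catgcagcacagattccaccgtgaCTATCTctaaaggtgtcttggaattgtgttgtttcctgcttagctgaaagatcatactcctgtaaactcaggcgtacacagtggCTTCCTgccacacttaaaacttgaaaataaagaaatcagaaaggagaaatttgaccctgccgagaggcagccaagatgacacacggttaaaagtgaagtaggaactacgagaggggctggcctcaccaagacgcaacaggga
Clec4g, chr8:3720696-3720901, minus strand: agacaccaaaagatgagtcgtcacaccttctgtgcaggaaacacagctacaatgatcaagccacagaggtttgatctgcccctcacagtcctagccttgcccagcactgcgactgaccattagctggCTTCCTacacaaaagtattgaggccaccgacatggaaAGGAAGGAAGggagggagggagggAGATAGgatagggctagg
Stab1, chr14:31168652-31168891, minus strand: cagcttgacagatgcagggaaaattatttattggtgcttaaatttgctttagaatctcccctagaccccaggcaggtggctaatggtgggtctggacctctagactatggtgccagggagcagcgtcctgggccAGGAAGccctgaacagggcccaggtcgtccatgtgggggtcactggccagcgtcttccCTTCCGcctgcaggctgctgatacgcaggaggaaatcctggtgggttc
Cd34 held 1 ETS and 1 GATA match, Clec4g 3 ETS matches and 1 GATA match, and Stab1 2 ETS matches. Of the 27025 promoters in the table, 39.0% held an ETS match and 27.1% a GATA match in 250 bases, so these letters are common. Fcgr2b and Kdr had no match of either kind in 250 bases, and those of Kdr lay wholly inside its annotated gene. The only ETS match of Stab2 lay inside its annotated gene. A match is a run of letters and was not examined for binding.

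On the arrays, 53.0% to 57.0% of the spots were well above background and none was saturated. All values are log2 of the processed spot intensity minus log2 of the 75th percentile of that array, so that 0 is the level of the 75th percentile spot. They compare 1 probe between arrays and never 1 gene with another. Probes printed at several spots gave the technical spread, the standard deviation (SD) of the log2 difference of a pair of such spots within an array. It was 0.072 for probes of signal 1000 and over, 0.13 for signals of 200 to 1000, and 0.26 for signals under 200. These values rest on 272, 18 and 13 probes, in the same order. Measured within an array, the spread leaves out the variation between mice. It also leaves out any variation of labelling, hybridisation or position between arrays, which every comparison below contains. The Mboat7 probe differed between LKO and F/F by -0.30 on chow and -0.27 on HFD, but where it lies relative to the floxed exons is not given in the sources used here, so it does not check the genotype labels. All 8 hepatocyte genes of the lists were well above background on every array, as the label liver requires.

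**Figure D1:**
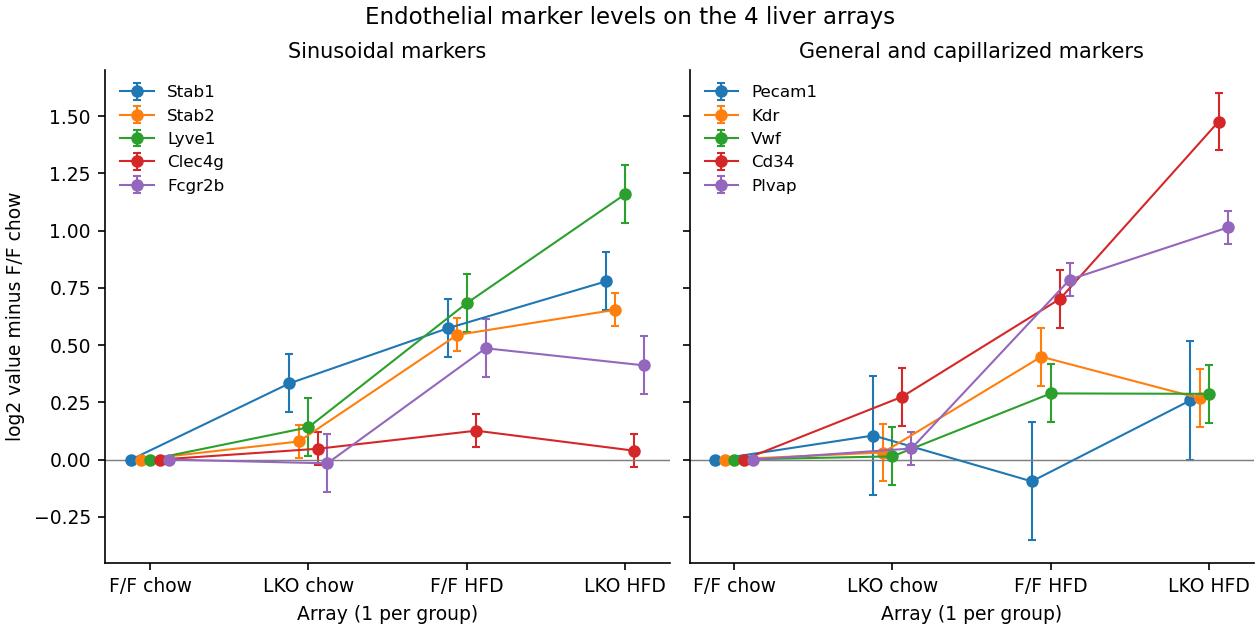
Level of each marker on the 4 arrays (horizontal axis, 1 array per group) as log2 value minus that of F/F chow (vertical axis). Bars are the technical SD at the brightness of the probe, and lines only join the points of 1 gene. Cd34, Plvap and Lyve1 reach the largest differences from F/F chow, on LKO HFD, while Clec4g stays between 0.00 and 0.13.

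The stabilins are large scavenger receptors that clear hyaluronan, modified lipoproteins and other ligands. On chow, Stab1 stood at 1.38 in F/F and 1.71 in LKO, and on HFD at 1.95 in F/F and 2.16 in LKO. It was thus higher in LKO than in F/F on both diets, and each array lay apart from the next by more than the technical SD of 0.13. The log2 difference between LKO and F/F was 0.33 on chow and 0.20 on HFD, and that between HFD and chow was 0.57 in F/F and 0.45 in LKO.

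Stab2, the main hyaluronan receptor of the sinusoid, stood on chow at 2.92 in F/F and 2.996 in LKO, and on HFD at 3.46 in F/F and 3.57 in LKO. The HFD arrays were above both chow arrays, by 0.54 in F/F and 0.58 in LKO, and the genotypes lay close together. LKO exceeded F/F by 0.08 on chow and 0.11 on HFD, little more than the technical SD of 0.072. Its second probe gave 0.45 in F/F and 0.62 in LKO for diet, and 0.08 on chow and 0.25 on HFD for genotype.

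Lyve1, a hyaluronan receptor of sinusoidal and lymphatic endothelium, stood on chow at 0.71 in F/F and 0.85 in LKO, and on HFD at 1.39 in F/F and 1.87 in LKO. It was the sinusoidal marker with the widest range over the arrays, 1.16. HFD exceeded chow by 0.68 in F/F (1.61-fold) and by 1.02 in LKO (2.02-fold), and LKO exceeded F/F by 0.14 on chow and 0.48 on HFD. The diet difference was therefore larger in LKO than in F/F by 0.33, a gap that was not tested.

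Clec4g encodes LSECtin, a C-type lectin of sinusoidal endothelium. It stood on chow at 4.79 in F/F and 4.84 in LKO, and on HFD at 4.92 in F/F and 4.83 in LKO. The 4 arrays spanned 0.13, the narrowest range of the 10 markers. Its diet difference was 0.13 in F/F and -0.01 in LKO, and its genotype difference was 0.05 on chow and -0.09 on HFD. At these sizes the sign of the value in LKO and of the genotype value on HFD depended on the scaling: quantile normalization gave 0.18 for diet in LKO, 0.22 for diet in F/F and 0.00 for genotype on HFD.

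Fcgr2b, the inhibitory Fc receptor that removes immune complexes in the sinusoid, stood on chow at 1.31 in F/F and 1.29 in LKO, and on HFD at 1.80 in F/F and 1.72 in LKO. The HFD arrays were higher by 0.49 in F/F and 0.43 in LKO, and the genotypes lay within the technical SD of 0.13 of each other on both diets. The second probe of Fcgr2b gave 0.42 and 0.43 for diet, and 0.05 on chow and 0.07 on HFD for genotype, where the brightest gave -0.02 and -0.07.

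Among the general endothelial markers, Kdr encodes VEGFR2, the main receptor for the growth factor VEGFA. It stood on chow at 1.48 in F/F and 1.51 in LKO, and on HFD at 1.93 in F/F and 1.75 in LKO. Diet differed by 0.45 in F/F and 0.24 in LKO. LKO was below F/F on HFD, with a difference of -0.18, the lowest genotype value among the 10 markers, and on chow the values lay within the technical SD (0.03).

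Vwf encodes von Willebrand factor, a clotting protein of larger vessels that appears in capillarized sinusoids. It stood on chow at 0.83 in F/F and 0.85 in LKO, and on HFD at 1.12 in F/F and 1.12 in LKO. It was higher on HFD by 0.29 in F/F and 0.27 in LKO, and the genotypes lay within the technical SD of 0.13 on both diets.

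Pecam1 encodes CD31, the adhesion molecule of endothelial junctions. Its single probe was dim, with signals of 62.0 to 98.9, and stood on chow at -1.84 in F/F and -1.73 in LKO, and on HFD at -1.93 in F/F and -1.58 in LKO. Ordered by level, the arrays ran F/F HFD, F/F chow, LKO chow and LKO HFD, and each lay within the technical SD of 0.26 of its neighbour. LKO exceeded F/F by 0.35 on HFD, and this difference fell to 0.16 with normexp background correction. The probe reads the transcript NM_001032378.

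Plvap, which forms the diaphragms of the pores of ordinary fenestrated capillaries, stood on chow at 1.91 in F/F and 1.96 in LKO, and on HFD at 2.70 in F/F and 2.93 in LKO. Its diet difference was the largest of the 10 markers in F/F, at 0.79 (1.72-fold), and was 0.97 (1.95-fold) in LKO. The chow arrays lay within the technical SD of 0.072 of each other, while LKO exceeded F/F by 0.23 on HFD.

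Cd34, the sialomucin of ordinary capillaries, stood on chow at -0.26 in F/F and 0.01 in LKO, and on HFD at 0.44 in F/F and 1.21 in LKO. In the order just given, each array lay above the one before it by more than the technical SD of 0.13, and the range of 1.48 was the widest of the 10. LKO exceeded F/F by 0.77 on HFD (1.71-fold) and by 0.27 on chow, and HFD exceeded chow by 0.70 in F/F (1.63-fold) and by 1.20 in LKO (2.30-fold). The larger diet difference in LKO, by 0.50, was the largest such gap of the 10 and was not tested. The second Cd34 probe was not well above background on any array. Averaging it in turned the genotype difference on chow to -0.72 and the diet difference in F/F to -0.33.

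**Figure D2:**
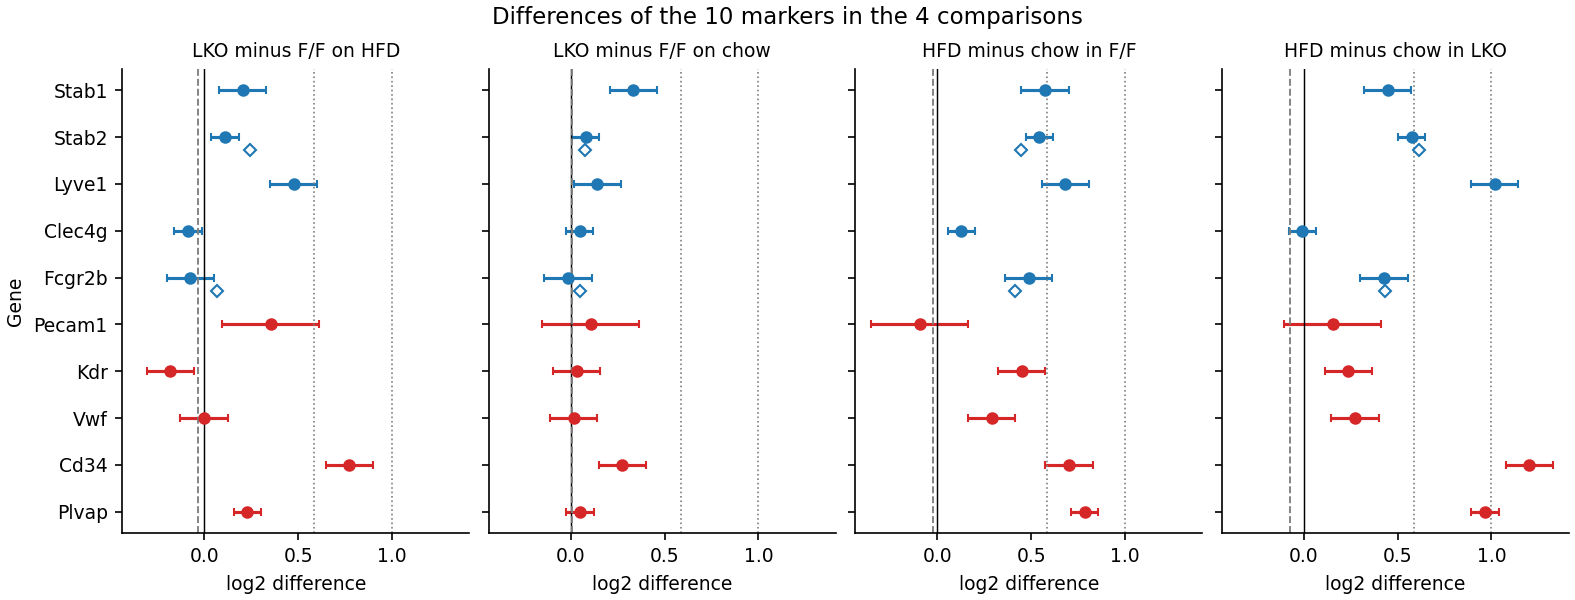
Log2 differences (horizontal axes) of the 10 markers (vertical axis, sinusoidal in blue, general and capillarized in red) in the 4 comparisons. Filled points are the brightest probe with the technical SD as a bar, open diamonds a second probe, the dashed line the median of all genes, and dotted lines 1.5-fold and 2-fold; 9 of 10 points lie right of 0 in each of the diet panels, and 6 of 10 for genotype on HFD.

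By the median over the 10, the markers differed more by diet than by genotype. The dim Pecam1 went the other way, with a mean genotype difference of 0.23 over the diets and a mean diet difference of 0.03 over the genotypes. For Cd34, the genotype difference on HFD (0.77) exceeded the diet difference in F/F (0.70). In F/F, 9 of the 10 markers were higher on HFD, against 47.8% of all genes with a value, and in LKO again 9 of 10, against 43.5%. Pecam1 was the lower one in F/F (-0.10), turning to 0.04 at the scale of the deposited value table, and Clec4g in LKO. The median over the 10 was 0.52 in F/F and 0.44 in LKO, where the medians of all genes were -0.02 and -0.07. Higher by more than the technical SD were 9 of 10 in F/F (35% of all genes) and 8 of 10 in LKO (32.2%), and lower by more than it were 0 in either (38.4% and 43.8%).

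At least 1.5-fold higher on HFD were Lyve1, Cd34 and Plvap, 3 of 10 in F/F (13.2% of all genes) and the same 3 in LKO (15.4%). Stab1 (0.57 in F/F) and Stab2 (0.58 in LKO) lay just under that threshold. At the deposited scale 6 of 10 passed it in F/F, with Stab1, Stab2 and Fcgr2b added, and 5 of 10 in LKO, with both stabilins added. That scale moved all genes upward: 61.2% were higher on HFD in F/F (47.8% otherwise) and 57.1% in LKO (43.5% otherwise). The share of all genes past 1.5-fold at that scale is not given here. With normexp, Stab2 took the place of Cd34 in F/F and joined the 3 in LKO. It joined in LKO also with the dimmest probe and with the mean of all probes, where Cd34 dropped out in F/F. Under quantile normalization and the percentile over probes well above background, Stab1 joined in F/F and Stab2 in LKO, 4 of 10 in each. The shares of all genes past 1.5-fold under these alternatives are not given here either. At least 2-fold higher were none of the 10 in F/F (5.21% of all genes) and Lyve1 and Cd34 in LKO (8.12%). Plvap joined them in LKO under 3 scalings (quantile, the percentile over probes well above background, and the deposited scale). Under these, 1302, 1385 and 1549 of all genes were 2-fold higher in LKO, against 1238 otherwise. With normexp the pair was Cd34 and Plvap, both at 1.03, with Lyve1 at 0.94, and 428 of all genes were 2-fold higher. None was 1.5-fold lower in either genotype, against 9.6% and 11.7% of all genes. Of all genes, 8.33% were at least as far above as Plvap in F/F and 5.90% at least as far above as Cd34 in LKO.

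Between genotypes on HFD, 6 markers were higher in LKO and 4 lower (45.9% of all genes were higher). The 6 were Stab1, Stab2, Lyve1, Pecam1, Cd34 and Plvap, and all of them exceeded the technical SD, as did 27.3% of all genes in this direction. The 4 lower ones, Clec4g, Fcgr2b, Kdr and Vwf, ranged from -0.18 to -0.00, and 2 of them, Clec4g and Kdr, exceeded it (35.3% of all genes). The signs of Fcgr2b and Vwf, like that of Clec4g, turned or went to 0.00 under some of the alternatives. Only Cd34 was at least 1.5-fold higher, 1 of 10 against 8.07% of all genes, and none was 2-fold higher (2.36%) or 1.5-fold lower (6.08%). The median over the markers was 0.16, that of all genes -0.03.

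On chow, 9 of the 10 were higher in LKO, against 50.7% of all genes, but by small amounts. The median was 0.06, and 6 of the 10 differences lay within the technical SD. Those beyond it were Stab1, Cd34, Lyve1 and Stab2, from 0.33 down to 0.08, which makes 4 of 10 higher against 25.4% of all genes, and 0 lower against 23%. The signs of Kdr, Vwf, Plvap and Fcgr2b on chow each turned under at least 1 alternative. None reached 1.5-fold (3.52% of all genes did so upward and 3.46% downward) or 2-fold upward (1.11%).

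The sinusoidal and the general and capillarized markers were then set against each other. With HFD in F/F, the 5 sinusoidal markers had a median of 0.54 and the 5 others 0.45, and in LKO these medians were 0.45 and 0.27. For LKO against F/F they were 0.11 and 0.23 on HFD, and 0.08 and 0.05 on chow. Sinusoidal minus other was thus 0.10, 0.17, -0.12 and 0.03 in these 4 comparisons, of which the first went to -0.00 when the dimmest probe stood for each gene and to 0.21 with the mean of all probes, the third to -0.02 with the dimmest probe and the last to 0.12 with normexp. Both sets overlapped in each of them: on HFD, the sinusoidal genotype differences ran from -0.09 to 0.48 and the others from -0.18 to 0.77.

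Within each set the members ran apart more than the sets did. Among the sinusoidal markers, the diet difference in LKO ran from -0.01 for Clec4g to 1.02 for Lyve1. Among the others, it ran from 0.15 for Pecam1 to 1.20 for Cd34. Cd34, Lyve1 and Plvap, which are drawn from both sets, were the 3 highest for diet in either genotype.

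**Figure D3:**
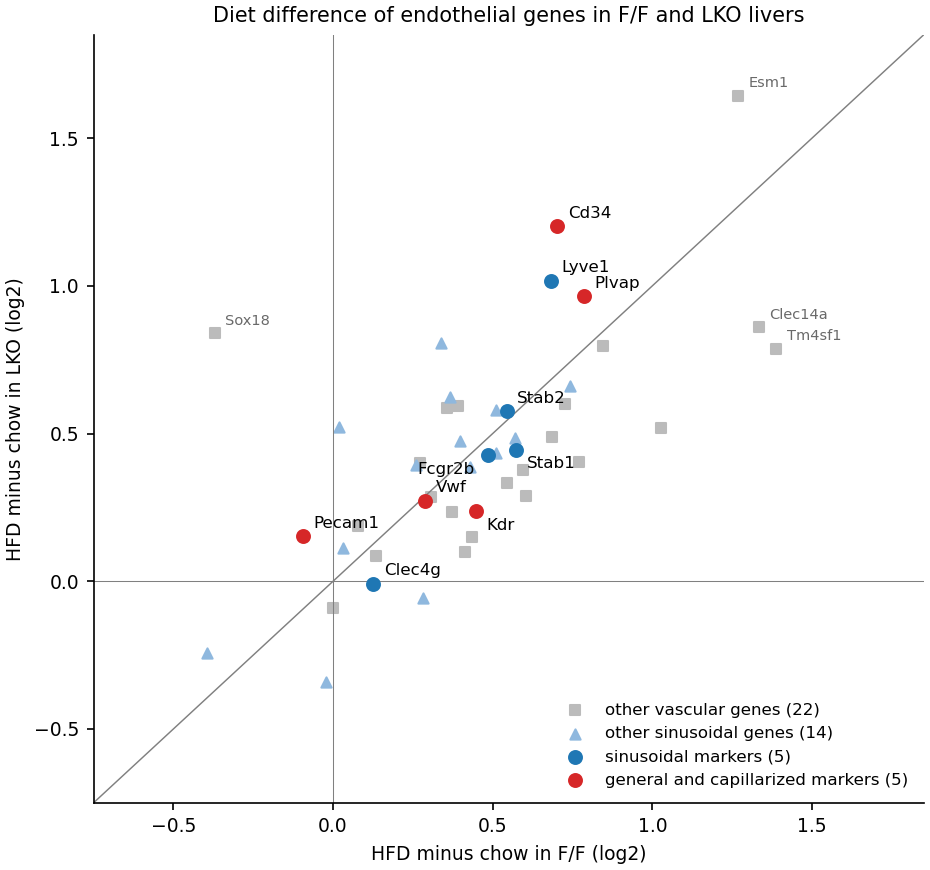
Log2 difference between HFD and chow in F/F (horizontal axis) and in LKO (vertical axis) for the 5 sinusoidal and 5 general and capillarized markers and for 14 other sinusoidal and 22 other vascular genes, 1 point per gene. On the grey diagonal both differences are equal. Cd34 (0.70 and 1.20) and Lyve1 (0.68 and 1.02) lie above it, and Kdr (0.45 and 0.24) below it.

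Further genes of the sinusoid were described in the same way. Of 14 other sinusoidal genes, 12 were higher on HFD in F/F and 11 in LKO, with medians of 0.35 and 0.46. With normexp, 11 of 14 were higher in each genotype, and the medians were 0.28 and 0.21, so that the larger of them was in F/F. Oit3, Gpr182 and Maf, the last a transcription factor of the sinusoid, were higher on HFD by 0.57, 0.43 and 0.74 in F/F and by 0.49, 0.39 and 0.66 in LKO. Tfec, a transcription factor of macrophages and sinusoidal endothelium, had the largest difference of the list, 0.81 for diet in LKO. Its probe was dim, with signals of 23.1 to 60.6. Wnt2, the endothelial signal to hepatocytes, stood at -0.02 in F/F and -0.34 in LKO for diet, and Gata4 at -0.39 and -0.24. Between genotypes on HFD the list median was 0.09.

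Of 24 other vascular genes, 22 had a value, and Apln and Aplnr were not well above background on any array. On HFD, 21 of 22 were higher in either genotype, with medians of 0.49 in F/F and 0.40 in LKO, close to the markers. Cdh5, the cadherin of endothelial junctions, was higher on HFD by 0.39 and 0.59, and Emcn by 0.85 and 0.80. Esm1, a product of VEGF-stimulated tip cells, was higher by 1.27 (2.41-fold) and 1.64 (3.12-fold). Tm4sf1 and Clec14a were higher by 1.39 and 1.33 in F/F and by 0.79 and 0.86 in LKO. The Clec14a probe was dim, with signals of 51.2 to 178.

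Between genotypes on HFD the median of these 22 genes was 0.03, with 12 higher and 10 lower. Cd34 lay 0.74 above that median and Lyve1 0.45 above it. Of the 22 genes, 1 exceeded Cd34 and 2 exceeded Lyve1. The former was Sox18, a transcription factor of vessel growth, at 1.20 (2.30-fold), a dim probe with signals of 73.5 to 190. For diet in LKO, 1 of the 22 genes, Esm1, exceeded Cd34, Lyve1 and Plvap. The comparison with this list was chosen after its values were seen.

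The pathways around the markers were described by lists as well. VEGF and angiopoietin ligands and receptors had medians of 0.12 in F/F and 0.10 in LKO for diet, below the markers, and of -0.01 and 0.04 with normexp. Vegfa, the ligand of the Kdr receptor, was lower on HFD by -0.38 in F/F and -0.55 in LKO. The brightest Nrp2 probe was lower by -0.69 and -1.13, but a second probe of the gene was higher by 1.001 and 0.49, so that no direction is given for Nrp2. Angiocrine and vasoactive factors had medians of 0.17 and -0.02 for diet, and of 0.01 and -0.17 with normexp. Dll4, a Notch ligand of endothelium, had the largest difference of that list, 0.97 between genotypes on chow, at signals of 8.88 to 29.1 near the floor.

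Of 19 endothelial transcription factors and Notch genes, 13 were higher on HFD in F/F and 15 in LKO, with medians of 0.29 and 0.40. With normexp, these counts were 11 of 19 in each genotype and the medians 0.09 and 0.05. Hey1, a target of Notch, was higher by 1.18 and 1.66 for diet and by 1.15 for genotype on HFD, read by a dim probe with signals of 18.0 to 121. Hes1 of the same list, also dim, stood at -0.63 in F/F and -0.05 in LKO for diet, and at 0.66 for genotype on HFD. Klf2, the flow-induced factor, was higher on HFD by 0.56 in both genotypes and lower in LKO by -0.27 on both diets. Notch1 was lower on HFD by -0.96 in F/F and by -0.34 in LKO.

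Basement membrane, which a healthy sinusoid lacks as a continuous layer, was higher as a list: 10 of 10 genes on HFD in F/F and 10 of 10 in LKO, with medians of 0.48 and 0.71. With normexp, 8 of 10 were higher in F/F and 9 of 10 in LKO, with medians of 0.37 and 0.42. Nid1 was higher by 1.15 and 1.73, Col4a2 by 1.19 and 1.08, and Lama4, read by a dim probe with signals of 48.8 to 120, by 1.05 and 0.76. A second Lama4 probe near the floor gave only bounds, 0.21 in F/F and 0.17 in LKO. A second Nid1 probe near the floor gave a bound of 0.51 in LKO and no value in F/F. Col4a1 was higher on HFD by 0.89 in F/F and 1.26 in LKO. Stellate cells make these proteins too. Between genotypes on HFD, 8 of 10 were higher, with a median of 0.26, or 0.13 with normexp.

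Of 12 adhesion molecules of endothelium, 11 had a value, and Sele was not above background on any array. Between genotypes on HFD, 10 of 11 were higher in LKO, with a median of 0.40, or 0.16 with normexp. Vcam1 was higher by 0.93, Cd9 by 1.15 and Jam3 by 1.05, and the second Vcam1 probe gave 0.65. The Jam3 probe was dim, with signals of 43.5 to 101, and so was the Cx3cl1 probe, with signals of 25.3 to 103. For diet in LKO, Vcam1, Cd9 and Cx3cl1 were higher by 1.39, 1.38 and 1.32. Vcam1 and Cd9 are also made by macrophages.

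**Figure D4:**
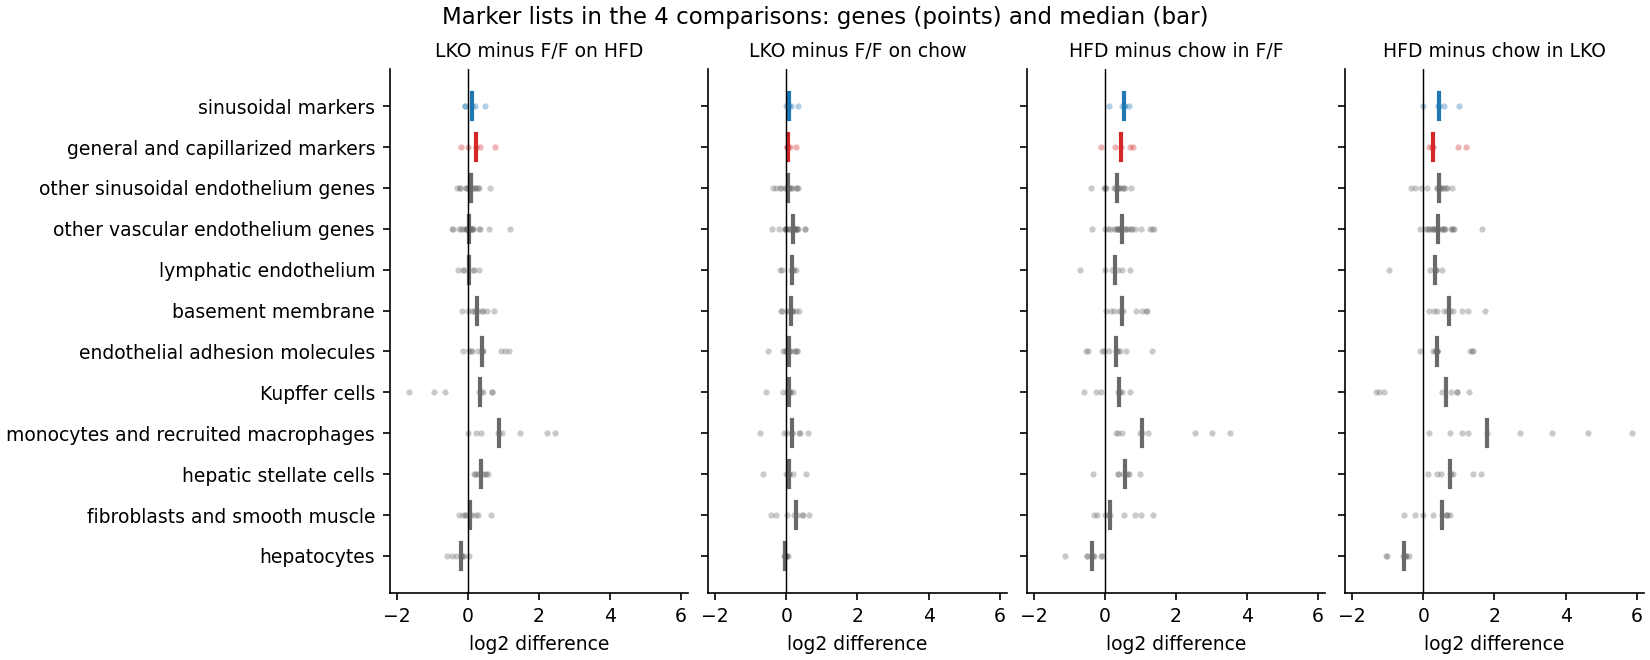
Log2 differences (horizontal axes) of the genes of 12 lists (vertical axis) in the 4 comparisons. Points are genes with a value, bounds included, and bars are list medians. On HFD against chow the endothelial, macrophage and stellate medians lie right of 0 and the hepatocyte median left of it (-0.35 in F/F and -0.53 in LKO).

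Markers of other cells differed along with the endothelial ones. All 8 hepatocyte genes were lower on HFD in both genotypes, with medians of -0.35 and -0.53. Their summed level relative to the 75th percentile was 2897 and 2886 on chow and 2321 and 1992 on HFD, in each case F/F before LKO, the order kept for the sums that follow. A sum adds the levels of different probes, so that the brightest gene weighs most in it. Of 9 genes of monocytes and recruited macrophages, 9 were higher on HFD in either genotype, bounds included, and 9 in LKO against F/F on HFD, with summed levels of 32.1, 32.2, 47.4 and 70.0. Of 8 stellate cell genes, 7 were higher on HFD in F/F, 8 in LKO and 8 in LKO against F/F on HFD, with summed levels of 75.5, 78.5, 100 and 116. The part of these cells in the Cd34, Lyve1, Stab1 and Pecam1 results was not tested.

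Of 8 Kupffer cell genes, 5 were higher and 3 lower on HFD in either genotype, with summed levels of 94.8, 89.5, 121 and 148. Cd5l carried that order: without it the sums were 56.3, 48.2, 58.1 and 47.8. Clec4f, a lectin of Kupffer cells, was higher on HFD by 0.41 in F/F and 0.52 in LKO. Timd4, Cd163 and Marco were lower on HFD than on chow, in LKO by -1.12 to -1.32 and in F/F by -0.10, -0.58 and -0.24. Among 6 B cell genes, Cd79a and Blk were not above background on any array, and the summed level ran from 0.625 to 0.984. Among 7 genes of platelets and megakaryocytes, Gp5 was not above background on any array, and the summed level was 0.762, 0.785, 1.59 and 2.18. Pf4, higher on HFD by 1.25 in F/F and 1.90 in LKO, carried that order, and without it the sums were 0.263, 0.285, 0.399 and 0.326. The list median, bounds included, was 0.94 for diet in F/F (4 genes higher, 1 lower) and 0.03 in LKO (3 higher, 2 lower), and -0.13 for LKO against F/F on HFD (3 higher, 3 lower), where Itga2b stood at -0.76 and Gp9 at -0.80. Their part in the Fcgr2b, Pecam1 and Vwf results was not tested. Of the 6 lymphatic genes, 5 were higher on HFD in either genotype, and Prox1 was lower, at -0.68 in F/F and -0.97 in LKO. The list medians were 0.29 and 0.34, or 0.06 and 0.05 with normexp. Lyve1 exceeded these medians, while Ccl21a, a chemokine of lymphatic vessels, exceeded Lyve1 in F/F (0.71 against 0.68).

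The 5 genes closest to Cd34 in shape over the 4 arrays were Il18bp, Gm19705, Vav1, Il10ra and Cotl1, among 13981 genes well above background on all 4. Their root mean square distance from the centred Cd34 profile was 0.031 to 0.035 (log2) over 4 arrays. Of the other markers, Lyve1 was the closest at 0.13 and in place 164, Plvap followed at 0.21 in place 522, and Clec4g was the farthest at 0.55. The 4 points on each profile allow many genes to lie close.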

How the data were processed

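Liver RNA of both genotypes on both diets was hybridised to one-colour Agilent arrays, 1 per group, on 1 slide in 1 scan, with array positions 1 to 4 in the order of the groups, so that position and group cannot be told apart. The authors deposited the processed intensity of each spot, background-subtracted and detrended by Agilent Feature Extraction 12.0.3.1 (from the submitters' processing notes), with flags for signal well above background. They also deposited a value table whose intensity equals the processed signal times 1 factor per array (2.10 to 2.63, origin not given in the sources used here).

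Each log2 value is log2 of the processed intensity minus that of the 75th percentile of the array's spots that are not controls (Python 3.11.15, pandas 2.3.3, numpy 2.4.6, matplotlib 3.10.9). Outlier-flagged spots were left out before the spots of a probe were averaged. Of 56605 probes, 33767 (59.7%) matched a symbol through the RefSeq table of GRCm38.p6, and the brightest probe stood for a gene. Because the files name another build, coordinates are given only for the printed promoter sequences, in GRCm38.p6. No value is given where both arrays of a comparison missed the background call, and a bound where 1 did. Signal over background stands in for depth.

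The members and lists were chosen with earlier results of these data known. With 1 array per group no test was made. Named genes are all members, those at least 2-fold apart in any comparison from each further endothelial or pathway list (at most 4 by size, otherwise the largest), Mboat7, and the 5 genes nearest the member of widest range; other list genes were named after their values were seen. Normexp (offset 50, limma 3.58.1 in R 4.3.3) used the median spot signal, as the files hold no mean. The steps were tested on data simulated by duplicating 1 array (F/F HFD) and adding spot noise, which says nothing about the spread between mice: 200 of 200 genes changed 4-fold were recovered, and 0 of the others among 23462 were called. The changed genes were bright ones, the call was at 2-fold, and every spot got the same noise, smaller than that of dim probes. The outcome therefore checks only that the steps run, not how often dim genes are missed or wrongly called. Other lists held adipocytes, red cells (4 of 6 genes matched), cholangiocytes, fibroblasts and smooth muscle, and exocrine pancreas.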

Additional observations from a re-analysis of the deposited data

Results flagged for a closer look

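The exocrine pancreas list, 9 genes of pancreatic digestive enzymes, differed between genotypes in opposite directions on each diet: its median was 1.90 in LKO minus F/F on HFD, with 9 of 9 genes higher, and -0.92 on chow, with 9 of 9 lower. For HFD minus chow it was 2.07 in LKO and -0.75 in F/F, again with all 9 genes on one side. Its summed level on chow was 24.4 for F/F and 14.4 for LKO, and on HFD 12.9 for F/F and 48.0 for LKO. None of the 10 markers had the same full order. Pecam1 shared the lowest array, F/F HFD, and the highest, LKO HFD, and its chow arrays lay within its technical SD of each other. The cholangiocyte list had a median of 0.46 in LKO minus F/F on HFD (5 of 6 genes higher) and -0.33 on chow (4 of 5 lower). Each stood out because the effect of one factor had opposite signs in the groups of the other. The differences were not tested, and their part in the marker results was not tested.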

How the results depend on the processing

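No paired analysis was possible because each group has 1 array without a replicate number, and no array can be left out. Of 40 marker differences, 29 kept their sign under 8 alternatives of normalization, background correction, probe choice and source. The remaining 11 did not, and were mostly values near 0. Of 320 alternative values, 284 moved by less than the technical SD, but many of these could not move. Scaled by percentile, the deposited table repeats the main values, because it differs from the processed signal by 1 factor per array. Every marker was well above background, so dropping filter and floor changed none. For the 7 markers with 1 probe, probe choice changed nothing. Both counts therefore overstate how far the values were tested. Reversed were Cd34 in LKO minus F/F on chow (-0.72) and Cd34 in HFD minus chow in F/F (-0.33), both with the mean of all probes, one of which was below background. The count of markers at least 2-fold apart, 0 between genotypes on HFD, became 1 with the mean of all probes and 1 at the 1.5-fold threshold. For diet in F/F it went from 0 to 3 at 1.5-fold, and for diet in LKO from 2 to 0 at 4-fold. Sinusoidal minus other medians moved by less than 0.13, the technical SD at signals of 200 to 1000, though that for diet in F/F turned to -0.00 with the dimmest probe. The medians and counts of several lists were smaller with normexp, as given beside them. At the deposited table's own scale, an alternative chosen after seeing the data, the median of all genes went from -0.02 to 0.11 for diet in F/F and from -0.07 to 0.07 in LKO. Genes 2-fold higher and lower then numbered 1075 and 337 in F/F (800 and 452 otherwise) and 1549 and 445 in LKO (1238 and 621 otherwise). With normexp they numbered 211 and 148 in F/F and 428 and 240 in LKO, and between genotypes 94 and 85 on HFD (366 and 296 otherwise) and 20 and 19 on chow (167 and 154 otherwise). Without filter or floor they numbered 996 and 889 on HFD, 672 and 807 on chow, 1366 and 1351 in F/F, and 1912 and 1508 in LKO. Normexp adds an offset of 50 to every spot, which by arithmetic makes log2 differences smaller, most of all for dim probes. The deposited scale shifts all genes of a comparison by the same amount. How much of the changes in these counts the offset accounts for was not tested. Dim probes, Pecam1 above all, limit precision.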

Other observations

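Of the adipocyte genes, 2 of 6 were higher on HFD in F/F and 2 of 5 in LKO, and Cfd was lower in LKO than in F/F on HFD by -3.90. Of the 4 red cell genes measured, all 4 were lower in LKO than in F/F on HFD, with a median of -0.95, and their summed level on chow was 107 for F/F and 105 for LKO, and on HFD 199 for F/F and 101 for LKO. Blood left in the vessels was not measured, and its part in the marker results was not tested. Of 9 fibroblast and smooth muscle genes, 7 were higher on HFD in F/F and 6 in LKO, with medians of 0.13 and 0.54. Cd5l of Kupffer cells was higher on HFD in LKO by 1.29, in the array where Marco, Cd163 and Timd4 of the same cells were lower.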
